A study of Mus musculus with 16 samples.

Results

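The 10 genes described here belong to the canonical Wnt pathway that builds and maintains the blood-brain barrier (BBB): the ligand genes Wnt7a, Wnt7b and Ndp, the receptor and coreceptor genes Fzd4, Lrp5 and Adgra2, and the pathway's target and feedback genes Axin2, Lef1, Apcdd1 and Tnfrsf19. They were listed by name and matched on the gene symbol in the deposited table. All 10 were found among its 55487 gene identifiers, and all 10 were among the 18859 genes with enough signal to be tested.

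In this pathway, Wnt ligands made mainly by astrocytes, neurons and oligodendrocyte precursors reach receptors on brain endothelial cells, β-catenin then accumulates, and TCF/LEF factors switch on target genes. Wnt7a and Wnt7b act through Frizzled receptors with Adgra2 (Gpr124) and Reck, while norrin, the product of Ndp, acts through Fzd4 with Lrp5. The pathway is known for inducing tight junction and transporter genes in brain vessels and for holding back leakiness.

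RNA-Seq was done on cortex from male wild-type C57BL/6 mice aged 2 months. They had received LPS, a bacterial cell wall product that triggers inflammation, at 2 mg/kg i.p., or PBS as control. Injections were given at the same time of day (TOD) on 2 consecutive days, either at ZT1, in the early light phase, or at ZT13, in the early dark phase, and tissue was taken 24 hours after the last. There were 3 PBS mice and 5 LPS mice at each TOD, 16 in all. Mice were grouped by title, and for 12 of the 16 another entry of the labels names the opposite treatment. Gfap, the astrocyte reactivity gene, ran from 111 to 123 CPM over the 6 PBS mice so defined and from 572 to 1134 CPM over the 10 LPS mice. CPM is the number of reads on a gene per 1000000 reads on all genes of a library.

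Libraries held 20251840 to 29112758 reads on genes. Counting error was therefore small for most of the 10 genes: read numbers per library ran from 49 to 115 for Ndp, the lowest, and from 1086 to 1986 for Tnfrsf19, the highest. The labels name no batch and give each library as its own mouse of 1 experiment, so the p-values measure the spread between these mice only. As the tissue is bulk cortex, fewer cells of a type and less RNA per cell cannot be told apart.

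Per kilobase of exon, the scale on which genes can be compared, levels in the 6 PBS mice were highest for Tnfrsf19, a TNF receptor family member, at 10.7 to 12.1 CPM per kb. Axin2 followed at 6.06 to 7.88 CPM per kb and Wnt7b at 6.34 to 7.45 CPM per kb, 2 ranges that overlap. Adgra2 lay at 3.68 to 4.14 CPM per kb and Wnt7a at 2.19 to 3.86 CPM per kb, which again overlap. In the norrin branch Fzd4 was at 1.58 to 2.53, Lrp5 at 1.58 to 2.17 and Ndp at 1.72 to 2.15 CPM per kb. These 3 ranges could not be separated, and that of Fzd4 overlaps that of Wnt7a. Apcdd1 was at 1.46 to 1.76 CPM per kb in PBS mice and reached 4.05 CPM per kb in an LPS mouse. Lef1, a transcription factor through which β-catenin acts, was the lowest of the 10 on this scale at 0.588 to 1.03 CPM per kb. The length used takes in all annotated exons of a gene.

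Lef1 and Axin2 are both textbook targets of β-catenin, and after LPS at ZT13 Lef1 passed the test and Axin2 did not, so a window of 250 bases before a RefSeq transcription start of each is shown (GRCm38.p6, both on the + strand). The Lef1 window is chr3:131156044-131156293, which lies inside the gene and before one of its internal starts. It is the only one of the 4 Lef1 windows with either word searched for, and the other 3 hold neither. Its capitals mark a TCF/LEF word (CTTTGTA, read on the other strand) and an E-box (CACGTG), the word bound by clock factors. The Axin2 window is chr11:108920099-108920348 and holds neither, so it has no capitals. Any of the other 3 Lef1 windows would have none either, so this contrast comes from the choice of window.
Lef1: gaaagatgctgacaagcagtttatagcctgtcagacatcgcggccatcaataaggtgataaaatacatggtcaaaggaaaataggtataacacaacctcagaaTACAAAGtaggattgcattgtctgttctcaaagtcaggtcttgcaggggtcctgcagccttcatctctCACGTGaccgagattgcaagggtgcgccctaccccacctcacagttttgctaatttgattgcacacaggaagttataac
Axin2: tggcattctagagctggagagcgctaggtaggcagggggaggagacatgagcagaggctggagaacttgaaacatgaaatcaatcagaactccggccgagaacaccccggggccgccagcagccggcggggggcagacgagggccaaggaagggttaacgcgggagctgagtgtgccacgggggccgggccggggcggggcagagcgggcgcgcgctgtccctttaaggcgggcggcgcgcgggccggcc

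RefSeq windows were at hand for 6 of the 10 genes, 10 windows in all, and Wnt7b, Lrp5, Adgra2 and Apcdd1 had no entry. The words searched on both strands were CTTTG followed by AA, AT, TA or TT for TCF/LEF and CACGTG for the E-box. A TCF/LEF word was present in 3 of the 10 windows (1 each of Lef1, Tnfrsf19 and Ndp), against 14.8% of all windows of this length. An E-box was present in 2 of the 10 (1 each of Lef1 and Tnfrsf19), against 6.02% of all windows. The Lef1 windows at 131110047-131110296 and 131110073-131110322 overlap, so the 10 windows are not all separate. Of the genes with a TCF/LEF word, Lef1 and Tnfrsf19 were called after LPS at ZT13 and Ndp was not (log2 fold change 0.00). These matches describe letters in a window and no binding was measured. Whether the words bear on the LPS response was not tested.

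**Figure D1:**
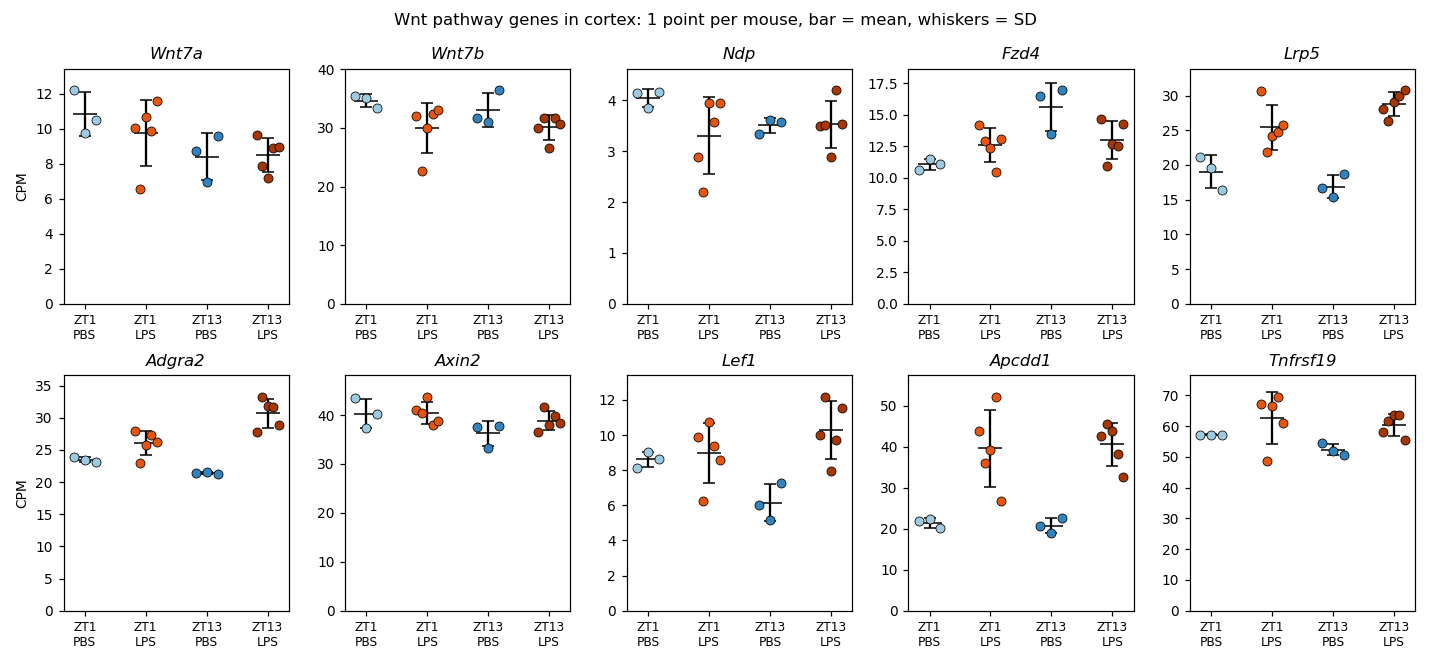
CPM of each gene (y axes, from 0) in the 16 mice, 1 point per mouse, by group (x axes). The horizontal bar is the group mean and the whiskers are the SD. All points of Apcdd1 and Lrp5 from LPS mice sit above those from PBS mice at both TODs, those of Lef1, Adgra2 and Tnfrsf19 do so at ZT13, and those of Axin2 overlap at both.

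LPS given at ZT13 was followed by higher mRNA of 5 of the 10 genes and by lower mRNA of none at an adjusted p under 0.05 (limma, Benjamini-Hochberg over all genes tested). The 5 were Apcdd1, Lrp5, Lef1, Adgra2 and Tnfrsf19, and in each of them all 5 LPS mice lay above all 3 PBS mice. At this TOD 28.6% of all tested genes were called, 19.2% as higher and 9.4% as lower, and 20.9% had LPS mice all above PBS mice. At an unadjusted p under 0.05 there were 6 of the 10, against 38.3% of all genes. The median log2 fold change was 0.15 over the 10 genes and 0.05 over all genes.

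Among the ligands, none passed the test at ZT13. Wnt7b, the more abundant of the Wnt7 ligand genes, was at 31.7, 31.0 and 36.5 CPM in the PBS mice and at 30.0, 31.7, 26.6, 31.6 and 30.6 CPM in the LPS mice. The groups overlapped, with the highest value in a PBS mouse, and the log2 fold change was -0.13 (95% confidence interval -0.28 to 0.02, adjusted p = 0.19 by limma). Wnt7a was at 8.73, 6.94 and 9.59 CPM with PBS and at 9.66, 7.91, 7.21, 8.91 and 8.96 CPM with LPS, so that the groups were interleaved. Its log2 fold change of 0.02 had an interval of -0.23 to 0.27. Ndp was at 3.34, 3.61 and 3.58 CPM with PBS and between 2.89 and 4.21 CPM with LPS, with a log2 fold change of 0.00 and an interval of -0.27 to 0.27.

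Of the receptor and coreceptor genes, Lrp5 and Adgra2 rose at ZT13. Lrp5, the coreceptor for Wnt ligands and norrin, was at 16.6, 15.4 and 18.7 CPM in ZT13 PBS mice and at 28.0, 26.3, 29.1, 29.9 and 30.8 CPM in ZT13 LPS mice. Every LPS mouse exceeded every PBS mouse by at least 7.66 CPM, and the fold change was 1.69 (95% confidence interval 1.52 to 1.88, log2 fold change 0.76, SE 0.07, adjusted p = 2.6e-06 by limma). Adgra2, the adhesion receptor that makes Frizzled complexes respond to Wnt7 ligands, was at 21.4, 21.6 and 21.2 CPM with PBS and at 27.8, 33.3, 31.8, 31.7 and 28.9 CPM with LPS. The PBS mice were within 0.366 CPM of each other and all LPS mice were higher, by 1.42-fold (1.29 to 1.56, log2 fold change 0.51, SE 0.06, adjusted p = 3.5e-05 by limma).

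Fzd4, the norrin receptor of endothelial cells, was not called. It was at 16.5, 13.5 and 17.0 CPM in ZT13 PBS mice and at 14.7, 11.0, 12.7, 12.5 and 14.3 CPM in ZT13 LPS mice. The 2 highest values were from PBS mice but the third PBS mouse fell among the LPS mice, and the log2 fold change of -0.26 (SE 0.10) had an adjusted p of 0.079 by limma. Scaling by median-of-ratios factors instead of library totals gave Fzd4 as lower (log2 fold change -0.31, adjusted p = 0.029 by limma) and Wnt7b as lower (-0.19, adjusted p = 0.049) and lost Tnfrsf19, so that the split among the 10 genes became 4 higher and 2 lower.

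Of the target and feedback genes, Apcdd1, a membrane-bound Wnt inhibitor that is itself induced by the pathway, had the largest fold change. It was at 20.7, 18.9 and 22.7 CPM in the PBS mice and at 42.7, 45.6, 43.9, 38.1 and 32.7 CPM in the LPS mice. The lowest LPS mouse was 10.02 CPM above the highest PBS mouse, and the fold change was 1.93 (1.67 to 2.22, log2 fold change 0.95, SE 0.10, adjusted p = 5.3e-06 by limma). Lef1 was at 5.99, 5.17 and 7.27 CPM with PBS and at 10.03, 12.2, 7.93, 9.72 and 11.5 CPM with LPS. The groups did not overlap, though LPS mouse 3 came within 0.655 CPM of PBS mouse 3, and the fold change was 1.62 (1.32 to 1.98, log2 fold change 0.70, SE 0.14, adjusted p = 0.0014 by limma). Tnfrsf19 was at 54.4, 51.8 and 50.8 CPM with PBS and at 58.2, 61.5, 63.5, 63.7 and 55.3 CPM with LPS. This was the smallest of the 5 called changes, 1.15-fold (1.07 to 1.25, log2 fold change 0.20, SE 0.05, adjusted p = 0.0094 by limma).

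Axin2, the negative feedback gene most often used as a readout of canonical Wnt signalling, did not pass the test. It was at 37.5, 33.3 and 37.9 CPM in ZT13 PBS mice and at 36.6, 41.7, 37.9, 39.8 and 38.4 CPM in ZT13 LPS mice. A single PBS mouse was below all others and the rest were interleaved. The log2 fold change was 0.10 with an interval of -0.02 to 0.23 (adjusted p = 0.22 by limma), which bounds a rise at 1.17-fold.

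**Figure D2:**
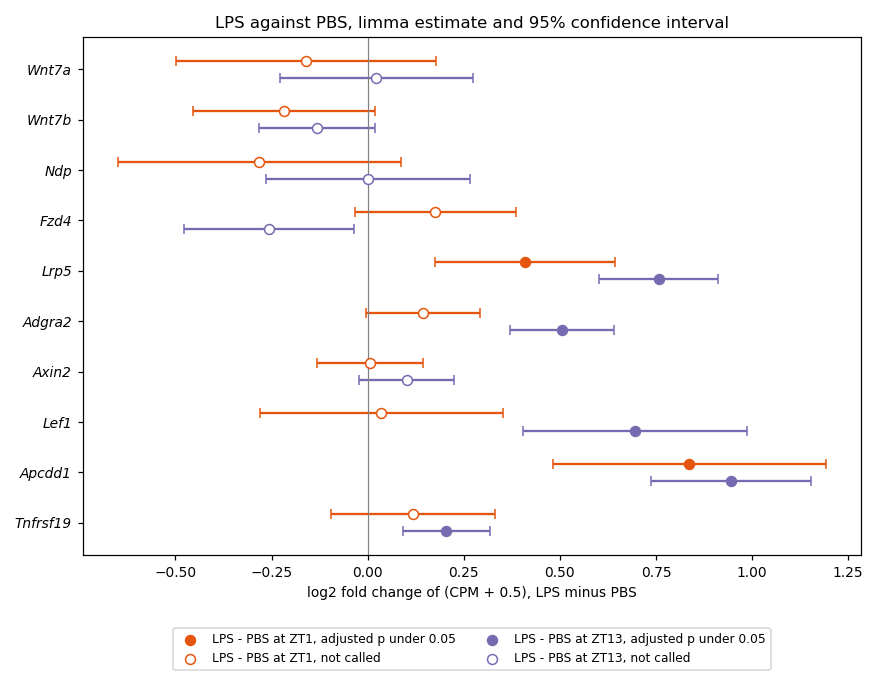
Log2 fold change of (CPM + 0.5), LPS minus PBS (x axis), for each gene (y axis) at ZT1 and at ZT13. Points are limma estimates, bars are 95% confidence intervals, and filled points passed an adjusted p of 0.05. Filled points are Apcdd1 and Lrp5 at ZT1 and Apcdd1, Lrp5, Lef1, Adgra2 and Tnfrsf19 at ZT13.

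LPS given at ZT1 was followed by higher mRNA of 2 of the 10 genes, Apcdd1 and Lrp5, and by lower mRNA of none. Here 16.2% of all tested genes were called, 11.1% as higher and 5.15% as lower, so that 2 of 10 is near what the whole table gave. The same 2 genes had an unadjusted p under 0.05, against 30.3% of all genes. LPS mice lay all above PBS mice in 2 of the 10 genes and all below in 1, against 15.9% and 8.41% of all genes. The median log2 fold change was 0.08 over the 10 genes and 0.04 over all genes.

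Apcdd1 was at 21.9, 22.4 and 20.1 CPM in ZT1 PBS mice and at 43.9, 35.9, 39.3, 52.2 and 26.8 CPM in ZT1 LPS mice. The LPS mice spread over a range of 25.3 CPM but all exceeded the PBS mice, and the fold change was 1.79 (1.40 to 2.28, log2 fold change 0.84, SE 0.16, adjusted p = 0.0050 by limma). Lrp5 was at 21.1, 19.6 and 16.4 CPM with PBS and at 30.7, 21.9, 24.2, 24.8 and 25.7 CPM with LPS. The groups came within 0.828 CPM of each other at LPS mouse 2, and the fold change was 1.33 (1.13 to 1.56, log2 fold change 0.41, SE 0.11, adjusted p = 0.023 by limma). This call was lost without PBS mouse 2 (adjusted p = 0.061 by limma) and without PBS mouse 3 (0.12).

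Lef1 and Adgra2 did not pass at ZT1. Lef1 was at 8.15, 9.02 and 8.66 CPM with PBS and at 9.86, 6.25, 10.8, 9.39 and 8.58 CPM with LPS, so the LPS mice fell on both sides of the PBS mice. Its log2 fold change of 0.04 had an interval of -0.28 to 0.35. Adgra2 was at 23.9, 23.4 and 23.2 CPM with PBS and at 27.9, 23.0, 25.8, 27.3 and 26.2 CPM with LPS, where 4 of the 5 LPS mice were above all PBS mice (log2 fold change 0.14, SE 0.07, adjusted p = 0.18 by limma). Tnfrsf19 was at 57.0 to 57.3 CPM in the PBS mice and at 67.3, 48.6, 66.5, 69.5 and 60.9 CPM in the LPS mice, again with only mouse 2 below the controls.

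ZT1 LPS mouse 2 stood apart more widely, being the lowest of its group in 7 of the 10 genes. Its summed level of 12 endothelial markers was 232 CPM against 280 to 318 CPM in the other 4 ZT1 LPS mice and 203 to 209 CPM in the ZT1 PBS mice, and its summed level of 6 microglia markers was 193 CPM against 264 to 315 CPM in those 4. Without this mouse 4 of the 10 genes were called higher at ZT1, with Tnfrsf19 (log2 fold change 0.21, adjusted p = 0.016 by limma) and Adgra2 (0.19, adjusted p = 0.038) added. Lef1 remained uncalled without it, at a log2 fold change of 0.15 (adjusted p = 0.31 by limma).

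Of the remaining genes at ZT1, Axin2 was at 43.4, 37.4 and 40.1 CPM with PBS and at 38.1 to 43.7 CPM with LPS, fully interleaved, with a log2 fold change of 0.01 (interval -0.13 to 0.14). Wnt7b was at 35.5, 35.1 and 33.4 CPM with PBS and at 32.01, 22.6, 30.0, 32.3 and 33.0 CPM with LPS. It was the gene whose LPS mice were all below the PBS mice, but the gap was 0.343 CPM and the log2 fold change of -0.22 (SE 0.11) did not pass the test (adjusted p = 0.20 by limma). Wnt7a, Ndp and Fzd4 had log2 fold changes of -0.16, -0.28 and 0.18 with overlapping groups and adjusted p-values of 0.54, 0.29 and 0.24 by limma.

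Between TODs in LPS mice, ZT13 against ZT1, none of the 10 genes was called against 0.0212% of all genes. In none did the groups separate, where 1.55% of all genes had ZT13 mice all above and 0.408% all below ZT1 mice. At an unadjusted p under 0.05 there were 2 of the 10, against 10.6% of all genes: Adgra2 (26.1 ± 1.89 CPM at ZT1 and 30.7 ± 2.26 at ZT13, SD, n = 5 each, log2 fold change 0.23, adjusted p = 0.19 by limma) and Lrp5 (25.5 ± 3.24 and 28.8 ± 1.73 CPM, 0.18, adjusted p = 0.41). Lef1 was at 8.97 ± 1.71 CPM at ZT1 and at 10.3 ± 1.66 CPM at ZT13 in LPS mice, and Apcdd1 at 39.6 ± 9.40 and 40.6 ± 5.22 CPM. Both differences were smaller than the SD between mice.

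In PBS mice, too, no gene of the 10 was called between TODs (0.52% of all genes were), but several separated. Fzd4 was at 10.6, 11.5 and 11.1 CPM at ZT1 and at 16.5, 13.5 and 17.0 CPM at ZT13, all higher at ZT13, with a log2 fold change of 0.48 (SE 0.10, adjusted p = 0.078 by limma). Lef1 was lower in all 3 ZT13 PBS mice (6.14 ± 1.06 CPM, SD, n = 3) than in all 3 ZT1 PBS mice (8.61 ± 0.440 CPM), with a log2 fold change of -0.47 (SE 0.13, adjusted p = 0.16 by limma). Tnfrsf19, Wnt7a, Ndp and Adgra2 also lay lower at ZT13 without overlap, by log2 fold changes of -0.13, -0.35, -0.18 and -0.13, and adjusted p-values of 0.24 to 0.55 by limma. In all, 1 of the 10 separated upward and 5 downward, where 9.52% and 9.21% of all genes did, and 5 of the 10 had an unadjusted p under 0.05 against 13.5% of all genes. ZT13 PBS mouse 2 was the lowest of its group in 7 of the 10 genes and ZT13 PBS mouse 3 the highest in 7.

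**Figure D3:**
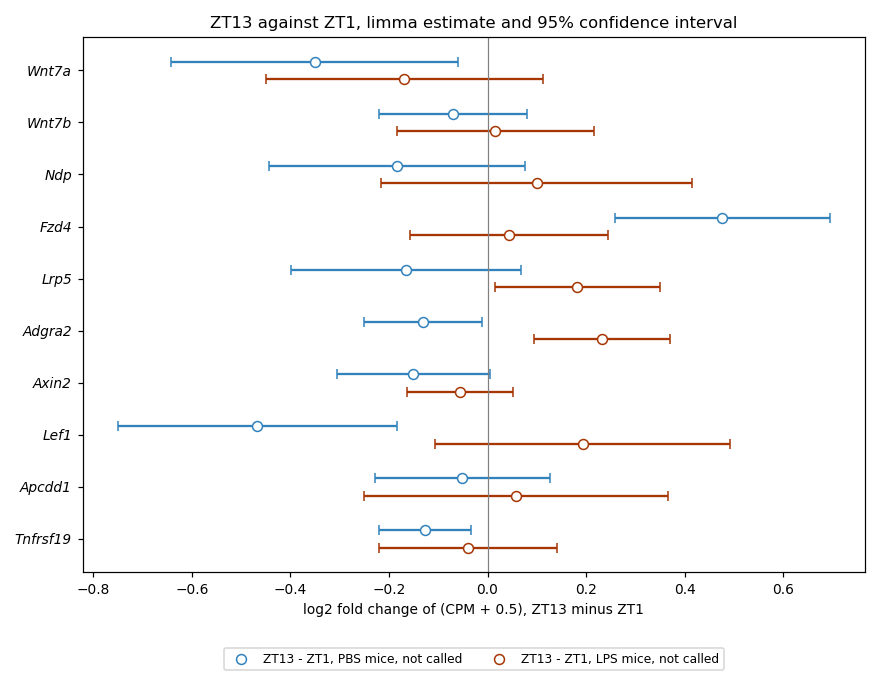
Log2 fold change of (CPM + 0.5), ZT13 minus ZT1 (x axis), for each gene (y axis) in PBS mice and in LPS mice. Points are limma estimates and bars are 95% confidence intervals. All points are open, as none passed an adjusted p of 0.05. Fzd4 in PBS mice (0.48) is farthest to the right and Lef1 in PBS mice (-0.47) farthest to the left.

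Whether the LPS response differed by TOD was tested directly as the TOD × treatment interaction over all 16 mice. None of the 10 genes was called, against 0.159% of all genes (0.122% as higher and 0.0371% as lower), and 4 of the 10 had an unadjusted p under 0.05 against 9.25% of all genes. These were Adgra2 (0.36, SE 0.09, adjusted p = 0.16), Lef1 (0.66, SE 0.21, adjusted p = 0.30), Fzd4 (-0.43, SE 0.15, adjusted p = 0.33) and Lrp5 (0.35, SE 0.14, adjusted p = 0.41), where the value is the log2 fold change to LPS at ZT13 minus that at ZT1, in limma. The calls of Lef1, Adgra2 and Tnfrsf19 at ZT13 and not at ZT1 are thus not shown to differ between TODs. With sample quality weights Adgra2 alone passed (0.36, adjusted p = 0.047 by limma). The interaction takes in the PBS mice of both TODs, whose own levels are given above. Between ZT1 and ZT13 the PBS mean of Lef1 went from 8.61 to 6.14 CPM and that of Fzd4 from 11.1 to 15.7 CPM.

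The wider pathway was described by 4 lists with 79 further genes, of which 66 were tested. At ZT13 LPS was followed by higher mRNA of 11 and lower mRNA of 10 of the 66, 31.8% together, and at ZT1 by 4 higher and 7 lower, 16.7%. Over all genes 28.6% were called at ZT13 (19.2% higher and 9.4% lower) and 16.2% at ZT1 (11.1% and 5.15%). The totals were thus near those of the whole table, but the split leaned more to lower mRNA at both TODs. With a mouse left out the counts at ZT13 were 6 to 9 higher (6 without PBS mouse 2) and 6 to 13 lower (6 without PBS mouse 3 and 13 without LPS mouse 1). With median-of-ratios factors the split was 7 higher and 18 lower at ZT13 and 3 higher and 8 lower at ZT1. No gene of the 66 was called between TODs in LPS mice, between TODs in PBS mice or for the interaction. In these 5, 7 and 3 of the 66 had an unadjusted p under 0.05 in limma. Each is a smaller share than the 10.6%, 13.5% and 9.25% of all genes.

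Of 15 other Wnt ligand and R-spondin genes tested, 1 rose and 3 fell at ZT13, against 19.2% and 9.4% of all genes. At ZT1 none rose and 2 fell, against 11.1% and 5.15%. R-spondins keep Frizzled receptors on the cell surface, and Rspo1 fell at both TODs, from 6.75 ± 0.486 to 4.82 ± 0.514 CPM at ZT13 (SD, n = 3 and 5, log2 fold change -0.45, adjusted p = 0.0064 by limma) and by 0.55 on the log2 scale at ZT1 (adjusted p = 0.020). Rspo2 fell by 0.44 on the log2 scale at ZT1 (adjusted p = 0.028 by limma). Its ZT13 means were 13.2 ± 0.115 CPM with PBS and 10.8 ± 1.06 CPM with LPS. Wnt4 went from 23.7 ± 2.82 to 18.5 ± 0.593 CPM at ZT13 (log2 fold change -0.34, adjusted p = 0.0025 by limma). Wnt10b rose 2.11-fold at ZT13 from a low 1.73 ± 0.350 CPM (adjusted p = 0.00070 by limma). At ZT1 Wnt10b was not called, with 1.35 ± 0.370 CPM in PBS mice and a widely spread 5.42 ± 4.27 CPM in LPS mice.

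Of 18 other receptor and coreceptor genes, 5 rose and 4 fell at ZT13, against 19.2% and 9.4% of all genes. At ZT1 1 rose and 2 fell, against 11.1% and 5.15%. Lgr6, an R-spondin receptor, rose at both, from 3.24 ± 0.724 to 10.4 ± 1.61 CPM at ZT13 (2.92-fold, adjusted p = 2.1e-06 by limma) and 1.63-fold at ZT1 (adjusted p = 0.012). Its relative Lgr4 fell at ZT1 (log2 fold change -0.26, adjusted p = 0.010 by limma). The ZT13 means of Lgr4 were 29.2 ± 2.38 CPM with PBS and 25.2 ± 0.623 CPM with LPS. The Frizzled receptor gene Fzd8 fell at both TODs (-0.33 at ZT1 and -0.32 at ZT13, adjusted p = 0.034 and 0.0076 by limma). Fzd2 fell at ZT13 (-0.48, adjusted p = 0.018 by limma) and Ror1, a receptor for noncanonical Wnt ligands, rose (0.44, adjusted p = 0.024).

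Among 18 genes of ligand secretion, the cytoplasm and the nucleus, 4 rose and 2 fell at ZT13, against 19.2% and 9.4% of all genes. At ZT1 1 rose and 2 fell, against 11.1% and 5.15%. The TCF factor genes Tcf7 (2.34 ± 0.149 to 3.94 ± 0.276 CPM, 1.56-fold, adjusted p = 0.00064 by limma) and Tcf7l1 (1.27-fold, adjusted p = 0.023) rose at ZT13. Tcf7 is also a T cell gene and was the only 1 of 6 T cell markers with enough signal to be tested. Cd3d and Cd3g, which define T cells, were under 0.15 CPM in every library, Cd2, Trac and Cd3e reached at most 0.227, 0.444 and 0.606 CPM, and the part of T cells in the change was not tested. Wls, which escorts Wnt ligands to the surface, fell by 0.21 on the log2 scale at ZT13 (adjusted p = 0.017 by limma). Gsk3b, a kinase of the β-catenin destruction complex, fell by 0.12 on the log2 scale at both TODs (adjusted p = 0.049 at ZT1 and 0.0084 at ZT13). At ZT1 Csnk1a1 rose by 0.12 and Bcl9 fell by 0.13 on that scale (adjusted p = 0.049 and 0.039).

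Of 15 inhibitor genes, 1 rose and 1 fell at ZT13, against 19.2% and 9.4% of all genes. At ZT1 2 rose and 1 fell, against 11.1% and 5.15%. Kremen1, a receptor for Dickkopf inhibitors, rose 1.19-fold at ZT13 (adjusted p = 0.0062 by limma) and Frzb, a secreted Wnt binder, fell (log2 fold change -0.25, adjusted p = 0.039). At ZT1 Rnf43, which removes Frizzled receptors and is a pathway target, rose 1.31-fold (adjusted p = 0.032 by limma) and Dkk3 rose 1.14-fold (adjusted p = 0.013). Nkd1, an intracellular feedback inhibitor induced by the pathway, fell from 14.3 ± 0.974 to 11.3 ± 0.296 CPM (SD, n = 3 and 5, log2 fold change -0.32, adjusted p = 0.011 by limma).

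**Figure D4:**
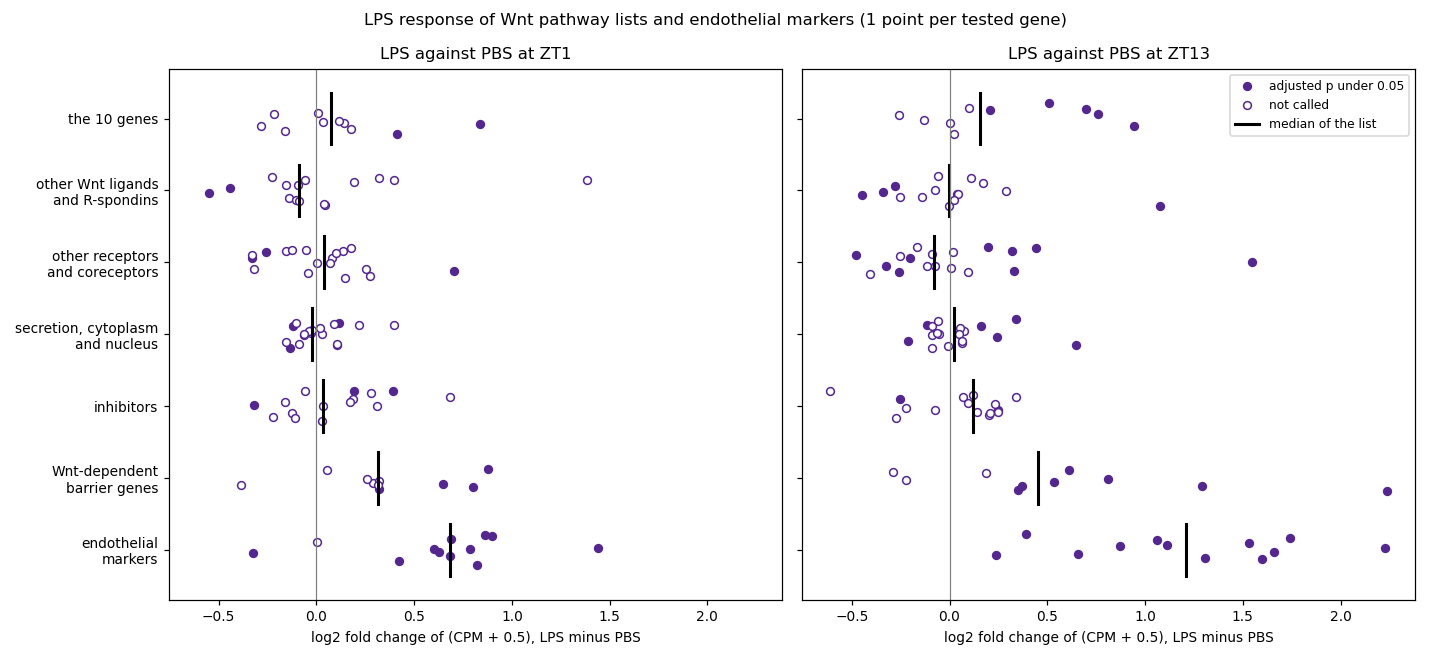
Log2 fold change of (CPM + 0.5), LPS minus PBS (x axes), at ZT1 and at ZT13 for each tested gene of the lists on the y axis. Filled points passed an adjusted p of 0.05 and black bars are list medians. Medians of the 10 genes are 0.08 and 0.15, those of the endothelial markers 0.69 and 1.21, and those of the 4 other pathway lists lie between -0.09 and 0.12.

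Barrier genes known to depend on endothelial Wnt signalling were listed too, whether it raises them or holds them low. Of 10 such genes, 7 rose and none fell at ZT13, against 19.2% and 9.4% of all tested genes. At ZT1 4 rose and none fell, against 11.1% and 5.15%. The median log2 fold changes were 0.45 at ZT13 and 0.32 at ZT1. As the list mixes both directions, these counts do not measure pathway activity. Cldn5, the main tight junction claudin of brain endothelium, was at 28.0 ± 1.52 CPM in ZT1 PBS and 53.1 ± 13.2 CPM in ZT1 LPS mice (1.84-fold, adjusted p = 0.0044 by limma), and at 12.996 ± 2.573 CPM in ZT13 PBS and 62.6 ± 5.76 CPM in ZT13 LPS mice (4.72-fold, adjusted p = 2.8e-09). It was the gene of this list with a called interaction (1.36 on the log2 scale, adjusted p = 0.013 by limma) and with a called fall between TODs in PBS mice (log2 fold change -1.10, adjusted p = 0.0085). The interaction call of Cldn5 was lost with all genes of CPM above 0 tested (adjusted p = 0.068 by limma), with no intensity trend (0.073), without ZT1 PBS mouse 1 (0.051) and without ZT13 PBS mouse 2 (0.050). Its call in PBS mice was lost with all genes tested (0.19), with no intensity trend (0.15) and without ZT1 PBS mouse 1 (0.054), ZT1 PBS mouse 2 (0.051) or ZT13 PBS mouse 2 (0.051). Slc2a1, the glucose transporter GLUT1 of the barrier, was at 94.8 ± 11.4 CPM in ZT13 PBS and 137 ± 8.50 CPM in ZT13 LPS mice. It rose 1.74-fold at ZT1 (adjusted p = 8.0e-05 by limma) and was 1.40-fold higher at ZT13 than at ZT1 in PBS mice (adjusted p = 0.039). The latter call was lost with all genes tested (0.32), with no intensity trend (0.24), with the choroid plexus covariate given further on (0.053), without ZT1 PBS mouse 1 (0.14), 2 (0.14) or 3 (0.12) and without ZT13 PBS mouse 2 (0.14). Foxf2, a transcription factor of brain vessels needed for the barrier, rose 2.45-fold at ZT13 (adjusted p = 1.2e-05 by limma). Its ZT1 means were 4.32 ± 0.870 CPM with PBS and 7.13 ± 1.76 CPM with LPS. The 7 that rose at ZT13 include Plvap, a gene of leaky vessels that Wnt signalling is known to hold low (log2 fold change 0.35, adjusted p = 0.013 by limma), which is named here for that reason after its value was seen.

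General endothelial markers moved in the same comparisons. For each list of this paragraph, the shares of all tested genes were 19.2% higher and 9.4% lower at ZT13. At ZT1 they were 11.1% and 5.15%, and 0.122% had a called positive interaction. Of 12 markers, all 12 rose at ZT13 (median log2 fold change 1.21), 10 rose and 1 fell at ZT1 (0.69), and 5 had a called positive interaction. That last count was 1 with all genes of CPM above 0 tested, 0 with no intensity trend and 2 with the replicate number as a block. With a mouse left out it was 5 or 6 without ZT1 LPS mouse 1, ZT13 LPS mouse 1 or ZT13 PBS mouse 3, 0 without ZT13 PBS mouse 2 and 1 to 3 without any other mouse. Their summed level was 164 to 183 CPM in ZT13 PBS, 322 to 380 CPM in ZT13 LPS, 203 to 209 CPM in ZT1 PBS and 232 to 318 CPM in ZT1 LPS mice, and no marker of any list used here was at 0 in all libraries. The called changes of Lrp5, Lef1, Adgra2, Apcdd1 and Tnfrsf19 were all smaller than the endothelial median at ZT13, while at ZT1 that of Apcdd1 (0.84) was larger than the endothelial median and that of Lrp5 (0.41) smaller. The part of endothelial RNA in them was not tested. Astrocyte markers, from cells that make Wnt ligands and norrin, had 4 of 8 called higher at each TOD and 1 called lower at ZT13 (summed 5173 to 5618 CPM in PBS and 5649 to 6497 CPM in LPS mice). That sum includes the reactivity gene Gfap, which alone was at 111 to 123 CPM in PBS and 572 to 1134 CPM in LPS mice. Neuron markers had 5 of 8 lower at ZT13 and 2 of 8 lower at ZT1 (6067 to 6416 CPM in PBS and 5470 to 5876 CPM in LPS mice). Mural cell markers had 3 of 8 higher at ZT13 and 2 at ZT1 (137 to 163 CPM in PBS and 130 to 177 CPM in LPS mice). Oligodendrocyte lineage markers, from cells whose precursors make Wnt7 ligands, had 2 of 8 higher and 3 lower at ZT13 and 2 higher and 1 lower at ZT1. Their summed level was 2663 to 2888 CPM in ZT13 PBS and 2348 to 2506 CPM in ZT13 LPS mice, which did not overlap, and 2364 to 2737 CPM in ZT1 PBS and 2248 to 2673 CPM in ZT1 LPS mice, which did. Meningeal fibroblast markers had 4 of 8 higher and 2 lower at ZT13 and 2 higher at ZT1 (144 to 230.05 CPM in PBS and 160.4 to 228 CPM in LPS mice). Of 6 microglia markers 5 were called higher and 1 lower at each TOD (169 to 191 CPM in PBS and 193 to 315 CPM in LPS mice), and all 4 tested neutrophil markers were called higher at each (at most 1.23 CPM in PBS and 8.37 to 86.5 CPM in LPS mice). The part of these cells in the changes of the 10 genes was not tested.

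Choroid plexus markers, from tissue that lies next to cortex and not in it, ranged from 14.1 to 986 CPM across libraries and the lowest library of a group was at 30.1 CPM or less and the highest at 594 CPM or more in each of the 4 groups. With the log2 of their sum as a covariate, an alternative chosen after seeing the data, 2 of the 10 genes were called at ZT1 as before and 6 at ZT13, with Fzd4 added as lower (log2 fold change -0.23, adjusted p = 0.033 by limma).

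The profiles over the 16 mice that lay nearest those of the 3 genes with the largest ZT13 change were found by the root mean square difference of log2(CPM + 0.5), each gene centred on its own mean. Nearest to Apcdd1 were Anln (0.159), Tlr9 (0.163) and Abca1 (0.172), against a spread of 0.480 for Apcdd1 about its own mean. Nearest to Lrp5 were Lrp10 (0.0862), Sbsn (0.102) and Pald1 (0.103), against 0.322. Nearest to Lef1 were Arhgef19 (0.154), Ets1 (0.156) and Gm36933 (0.159), against 0.313.

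In GRCm38 the 10 genes lie apart from each other: Axin2 at 11:108920349-108950783, Lef1 at 3:131110471-131224356, Apcdd1 at 18:62922231-62961179, Tnfrsf19 at 14:60963875-61046490, Wnt7a at 6:91363981-91411363, Wnt7b at 15:85535437-85582473, Fzd4 at 7:89404355-89413134, Ndp at X:16885521-16911774, Lrp5 at 19:3584828-3686564 and Adgra2 at 8:27085583-27123436. Exons of 4 overlap a gene on the opposite strand, and it is not given in the sources used here whether strand was used in counting. For Lef1 the overlap with Gm43352 covers 13.75% of its exon bases, for Wnt7b that with AU022754 6.61%, for Axin2 that with Gm11670 3.8% and for Adgra2 that with Brf2 1.26%. Reads there could belong to either gene, and the overlapping genes reached at most 2.16, 2.31, 0.291 and 14.1 CPM.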

How the data were processed

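RNA was extracted from cortex and sequenced after ribosomal RNA depletion. The authors deposited gene values as CPM, which sum to 1000000 in each of the 16 columns; the submitters' processing notes name bcl2fastq, DRAGEN 4.0.3-8 and GRCm38. Of 55774 lines, 287 repeated a gene with identical values and were removed. In each library, 80.7% to 82.4% of the values worth 20 reads or fewer came out as whole reads within 0.01 read, too few to recover counts, so no count test was run.

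Genes reaching a CPM of 1 in 3 or more of the 16 samples were tested on log2(CPM + 0.5) with limma 3.58.1 (R 4.3.3, intensity trend, Benjamini-Hochberg). Each pairwise comparison was fitted on its own groups and the interaction on all 16 samples. Fold changes are on the log2(CPM + 0.5) scale, and ± is the SD. Intervals of fold changes come from limma. As a check of the code, the fits were also run on simulated data. These had independent noise and few changed genes, a simpler setting than the measured data. The 10 genes, and the lists, were chosen with earlier results of these data known. From each list the text names up to 2 called genes in each direction per comparison with the largest changes. A gene named at only 1 TOD may therefore have changed at the other as well. Alternatives were pseudocounts of 0.1 and 1, all genes with CPM above 0, median-of-ratios factors, a single fit, no intensity trend, sample quality weights, a replicate block and leaving out each mouse. Coordinates and exon lengths are from GENCODE for GRCm38, and upstream windows from RefSeq. Tables were made in Python 3.11.15 with numpy 2.4.6 and pandas 2.3.3, and plots with matplotlib 3.10.9.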

Additional observations from a re-analysis of the deposited data

How the results depend on the processing

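The number of the 10 genes called at ZT1 was 2, and it was 0 with all genes of CPM above 0 tested (Apcdd1 adjusted p = 0.074, Lrp5 0.13), 1 with no intensity trend (Lrp5 0.062), and 1 to 4 when a mouse was left out. It was 1 without PBS mouse 2 or 3 and 4 without LPS mouse 2. At ZT13 the count was 4 to 6 under all alternatives and 5 to 6 when a mouse was left out; Tnfrsf19 was lost with all genes of CPM above 0 (adjusted p = 0.054), median-of-ratios factors (0.061) and a single fit (0.082), and Fzd4 was added as lower without PBS mouse 2 (0.029) or LPS mouse 1 (0.049). For the interaction the count was 1 with sample quality weights. The values behind these are limma's adjusted p. The cause of these shifts was not tested. With all genes of CPM above 0, the number of tests was 38565, and limma's intensity trend was also fitted on that larger set.

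Signs turned only for genes that were not called. With median-of-ratios factors these were Axin2 (-0.038) and Lef1 (-0.0069) at ZT1 and Wnt7a (-0.030) and Ndp (-0.048) at ZT13. Ndp at ZT13 was also -0.000187 with a pseudocount of 0.1 and -0.0010 with the choroid plexus covariate, under which Lef1 at ZT1 was -0.012, and Wnt7b between TODs in LPS mice was -0.014 with sample quality weights. With a mouse left out, log2 fold changes spanned -0.046 to 0.060 (Axin2) and -0.033 to 0.15 (Lef1) at ZT1, and -0.10 to 0.12 (Wnt7a) and -0.057 to 0.061 (Ndp) at ZT13. Between TODs in LPS mice they spanned -0.073 to 0.16 (Apcdd1), -0.13 to 0.00040 (Tnfrsf19), -0.081 to 0.059 (Wnt7b), -0.019 to 0.10 (Fzd4) and -0.019 to 0.16 (Ndp), in PBS mice -0.11 to 0.014 (Apcdd1), and for the interaction -0.022 to 0.21 (Apcdd1), -0.00076 to 0.13 (Tnfrsf19) and -0.011 to 0.16 (Wnt7b).

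Mice with the same replicate number were not treated as pairs. Correlations of their deviations from group means were -0.20 to 0.33, with the highest between mouse 5 of each LPS group and the next at 0.089. With the replicate number as a block, Fzd4 at ZT13 was called lower (-0.29, adjusted p = 0.033 by limma), Wnt7a and Ndp at ZT13 were -0.024 and -0.080, and no other call among the 10 genes changed. Genes of the wider pathway called with the block were 2 higher and 1 lower at ZT1 and 8 and 8 at ZT13.

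Over all genes, calls at ZT1 were 3061 (2089 higher and 972 lower), and 1668 higher and 1417 lower with median-of-ratios factors; at ZT13 they were 5401 (3629 and 1772), and 2870 and 2759 with those factors. Over the alternatives the calls ranged from 1605 to 4097 at ZT1, 0 to 225 between TODs in LPS mice (4 in the reported fit), 3 to 125 in PBS mice (98) and 11 to 124 for the interaction (30). With a mouse left out they ranged from 1767 to 3758 at ZT1, 0 to 345 and 12 to 87 between TODs in LPS and PBS mice, and 7 to 104 for the interaction. Wider pathway calls at ZT1 were 0 higher and 3 lower with all genes tested, 3 and 4 with no intensity trend or with the choroid plexus covariate, and 1 to 5 higher and 2 to 8 lower with a mouse left out, lowest without PBS mouse 1 or 3. Barrier genes called higher at ZT1 were 1 with all genes tested and 2 without PBS mouse 2 or 3, against 4, and endothelial markers were 5 with all genes tested and 6 without PBS mouse 1 or 3, against 10.

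Depth limits Ndp most, with 49 to 115 reads a library.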

Other observations

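Of the 79 genes of the wider pathway, 13 were too low to be tested, 6 ligand or R-spondin genes and 7 inhibitor genes. Wnt3a, a ligand gene often used to activate the canonical pathway in culture, reached at most 0.185 CPM in any of the 16 libraries, and Dkk1, a secreted inhibitor, reached at most 0.0466 CPM. Wif1 and Dkk2 reached at most 0.851 and 0.886 CPM.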
